A study of Danio rerio with 27 samples.

Results

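The 43 genes of the Notch pathway described here are 9 ligands, 4 receptors, 3 Fringe enzymes, 6 components of the receptor-cutting proteases, 5 nuclear partners, 11 targets or family members of the targets, and 5 inhibitors or modulators. They were found by symbol, and 39 of them had a row in the table of 32520 genes. The symbols her4.2, maml2, ncstn and dtx1 were not used here.

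Notch signalling passes between touching cells: a Delta or Jagged ligand on one cell binds a Notch receptor on its neighbour, proteases cut the receptor, and its intracellular part enters the nucleus, where it joins the DNA-binding protein Rbpj and Mastermind co-activators to switch on repressor genes of the Hairy/Enhancer of split (her, hes) and hey families. Fringe enzymes add sugars to the receptor and so change which ligands it answers to. In epithelia with sensory or neuroendocrine cells the pathway is known for lateral inhibition, in which cells rich in Delta keep their neighbours from the same fate.

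The values are TPM, a transcript measure scaled for gene length and library, in 27 RNA libraries of adult zebrafish. All fish carried the transgenes spic:EGFP and mpeg1:DsRedx, and each library was made from 30 cells sorted as EGFP-positive and DsRedx-negative, taken to be progenitors of metaphocytes, which are myeloid-like cells of ectodermal origin in fish barrier tissues. The groups were spic mutant epidermis (n = 7), sibling epidermis (n = 7), spic mutant gill (n = 8) and sibling gill (n = 5); spic encodes an Ets-family transcription factor. The sources used here name neither the mutant allele nor the genotype of the siblings, nor whether libraries came from separate fish. The p-values thus measure the spread between libraries, which may be technical. TPM keeps no depth. Genes at 1 TPM or more numbered 6469 to 8531 in mutant epidermis, 7688 to 9097 in sibling epidermis, 6755 to 10633 in mutant gill and 8407 to 10655 in sibling gill.

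The targeted gene was low under the mutant label. In epidermis spic (ENSDARG00000012435) stood at 7.37 to 125 TPM in mutants and at 561 to 760 TPM in siblings, and mean log2(TPM + 1) fell by 4.55 (two-sided exact permutation test, p = 0.000583). In gill it stood at 2.92 to 53.3 TPM in mutants and at 140 to 500 TPM in siblings, and fell by 4.28 (two-sided exact permutation test, p = 0.000777). Both p-values are the smallest that the regroupings allow.

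Members were tested with limma on log2(TPM + 1) in 1 fit of all libraries, with p-values adjusted over the 13465 genes at 1 TPM or more in at least 5 libraries. Of the 39 members 28 passed this filter. In epidermis 6 of the 28 (21.4%) passed, against 12.8% of all genes: 5 members were higher in mutants (dll4, dlb, lfng, her2 and her15.1) and 1 was lower (mfng), which is 17.9% and 3.57% of the 28; over all genes tested 4.13% were higher and 8.69% lower. In gill 1 of the 28 (3.57%) passed, against 6.21% of all genes: 0 members were higher and 1 (mfng) was lower, beside 2.34% and 3.87% over all genes. An unadjusted p under 0.05 in limma was reached by 7 members in epidermis and 4 in gill, a cutoff at which no share over all genes was taken. The median log2 change of the 28 was 0.25 in epidermis, beside -0.27 over all genes, and 0.05 in gill, beside -0.03 over all genes. These counts and medians are descriptions only, since a gene can pass the filter through the group in which it is high. The members were also chosen with earlier results of these data known.

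**Figure D1:**
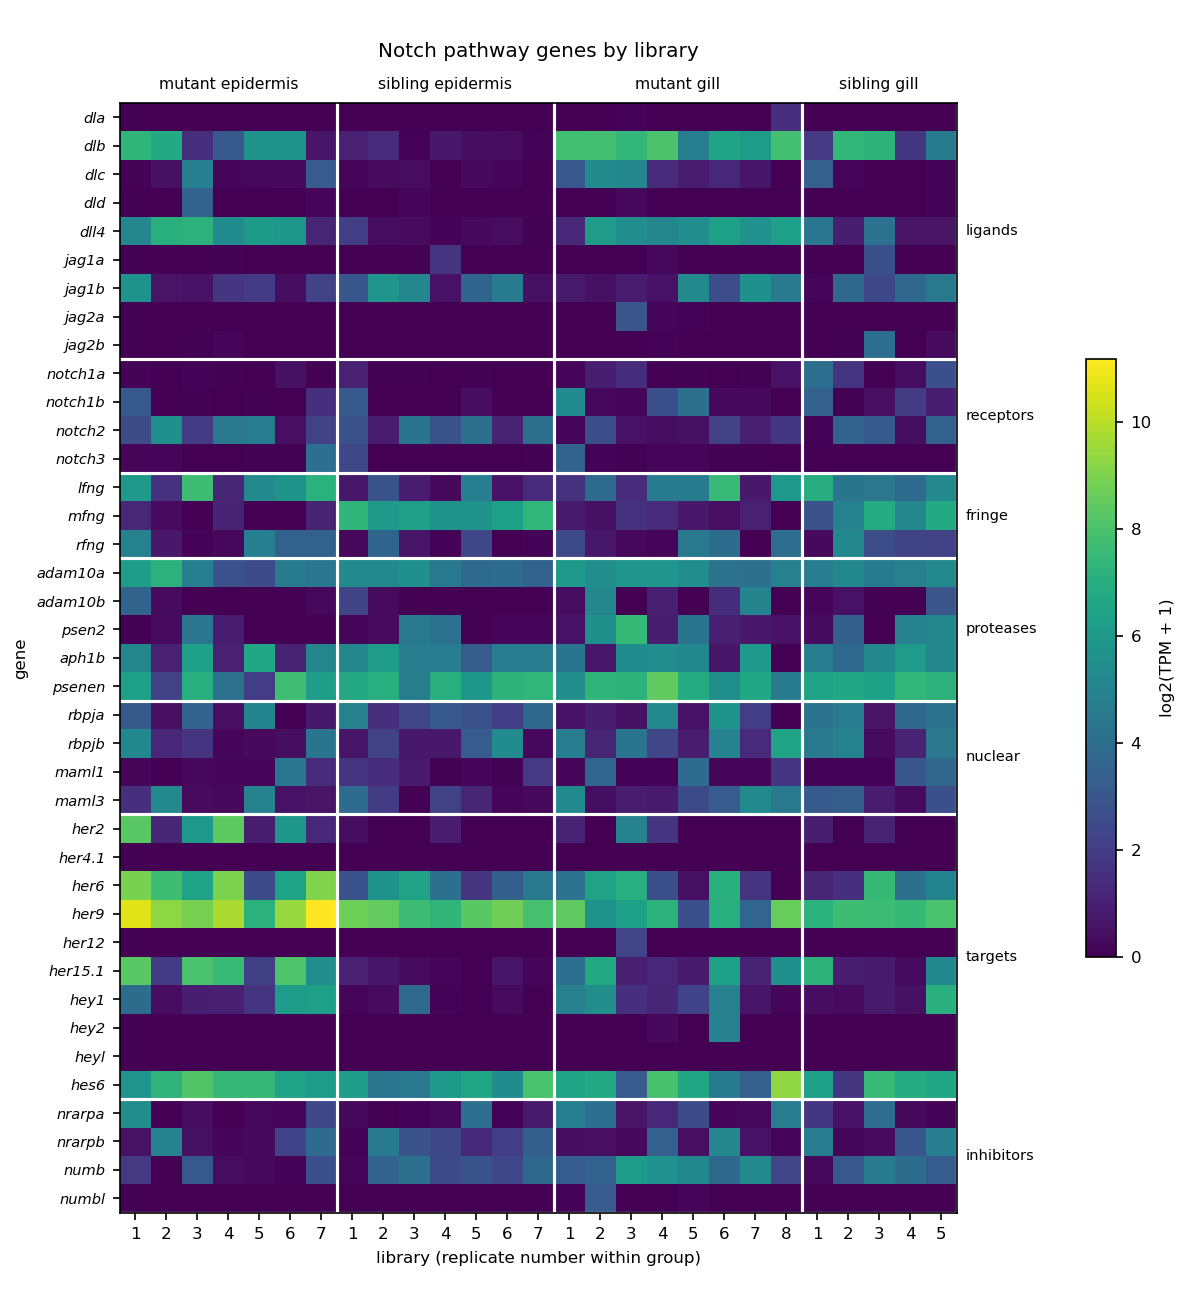
Levels of the 39 members (rows, by role) in each of the 27 libraries (columns, by group and replicate number), coloured by log2(TPM + 1). The ligand rows dll4 and dlb are bright in most mutant libraries, mfng is bright in the sibling libraries alone, and her9 is bright in nearly all libraries.

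Among the ligands, dll4 and dlb rose in mutant epidermis. The gene dll4 (ENSDARG00000070425) encodes a Delta ligand best known from the tip cells of growing blood vessels. In epidermis it stood at 1.25, 59.1 and 142 TPM in mutants (lowest, median and highest of 7) and at 0.0392, 0.257 and 3.18 TPM in siblings. The groups overlapped through mutant epidermis 7, the lowest mutant, and sibling epidermis 1, the highest sibling; the other 6 mutant libraries held 34.5 TPM or more. The log2 change was 4.90 (SE 0.91; limma, adjusted p = 0.000217).

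The gene dlb (ENSDARG00000004232) encodes deltaB, a ligand of lateral inhibition in the zebrafish nervous system. In epidermis it stood at 0.575, 50.4 and 157 TPM in mutants and at 0.0879, 0.347 and 1.71 TPM in siblings. Mutant libraries 3 and 7, at 1.92 and 0.575 TPM, lay near or within the sibling range, and the rest lay above it. Its log2 change came to 3.80 (SE 0.98; limma, adjusted p = 0.00697).

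In gill the same pair was high in mutants, but siblings were mixed. For dll4 mutant gill held 1.39, 46.3 and 79.4 TPM (lowest, median and highest of 8), and the sibling libraries 1 to 5 held 19.7, 0.916, 16.9, 0.506 and 0.501 TPM. Mutant gill 1, the lowest, lay inside the sibling range and the other 7 lay above it. Its mean difference of 3.09 on the log2 scale (SE 0.97) stood at the threshold without passing it (limma, adjusted p = 0.0502). It did pass without mutant gill 1 (0.0111), sibling gill 1 (0.0270) or sibling gill 3 (0.0373). The other fits without 1 library did not pass, and adjusted p in limma reached 0.167 without sibling gill 4.

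For dlb mutant gill held 26.5, 192 and 257 TPM, and sibling gill held 2.57, 165, 146, 2.42 and 22.4 TPM. Sibling libraries 2 and 3 lay within the mutant range and the other 3 were lower than every mutant library. For dlb in gill the log2 change was 2.49 (SE 1.04; limma, adjusted p = 0.170). In siblings its level was higher in every gill library, at 2.42 TPM or more, than in every epidermal library, at 1.71 TPM or less, as for 1.17% of all genes. That tissue difference of 3.94 (SE 1.07) missed the threshold in limma (adjusted p = 0.0717).

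The mutant effects on the ligands were not shown to differ between tissues. The difference, gill minus epidermis, was -1.81 for dll4 (SE 1.33; limma, adjusted p = 0.716) and -1.31 for dlb (SE 1.43; limma, adjusted p = 0.830).

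Of the other ligands, jag1b, which encodes a Jagged ligand, made up most of the little ligand RNA in sibling epidermis. It averaged 8.89 ± 19.0 TPM in mutant epidermis and 19.0 ± 20.4 TPM in sibling epidermis, 14.5 ± 19.2 TPM in mutant gill and 10.3 ± 8.45 TPM in sibling gill (SD, n = 7, 7, 8 and 5). The mean of mutant epidermis rested on library 1, at 52.0 TPM, and the SD exceeded the mean in 3 groups. The Delta gene dlc averaged 5.29 ± 10.3 TPM in mutant epidermis, 0.150 ± 0.116 TPM in sibling epidermis, 10.9 ± 16.8 TPM in mutant gill and 2.01 ± 4.4 TPM in sibling gill, and did not pass in either tissue.

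Summed over the 9 ligand genes, the level was 138 ± 89.2 TPM in mutant epidermis and 20.7 ± 20.3 TPM in sibling epidermis, 237 ± 81.7 TPM in mutant gill and 92.1 ± 84.4 TPM in sibling gill (SD). The leading ligand differed: dll4 gave 48.9% of the summed mean in mutant epidermis, jag1b 91.6% in sibling epidermis, and dlb 67.7% in mutant gill and 73.6% in sibling gill.

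**Figure D2:**
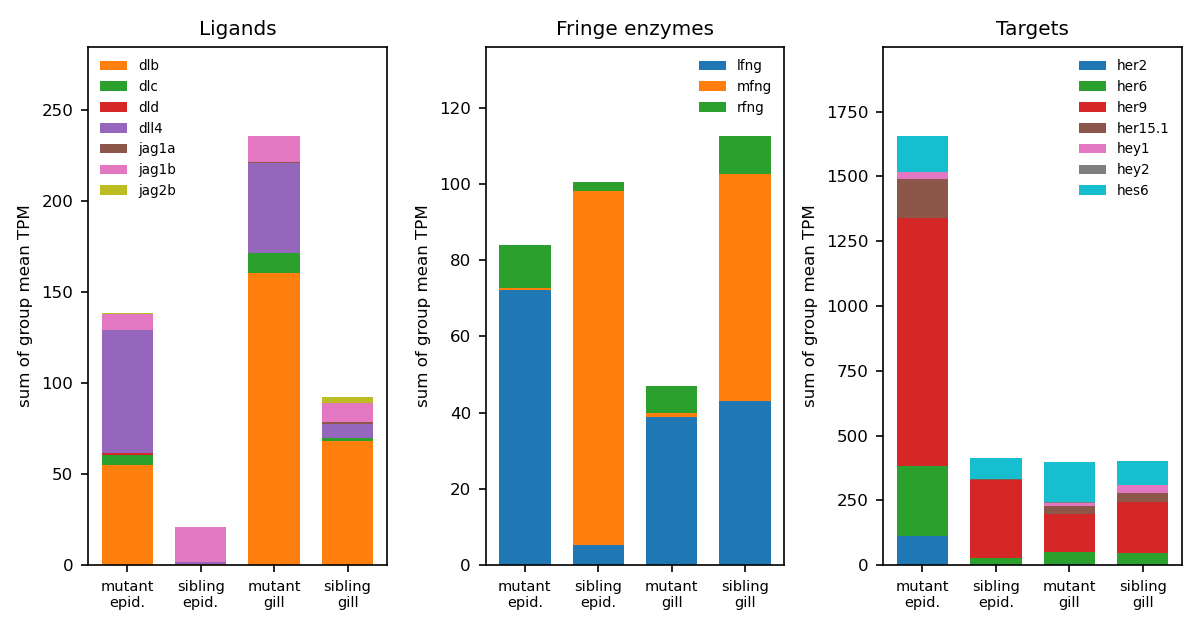
Group mean TPM stacked by gene for ligands, Fringe enzymes and targets, in mutant and sibling cells of each tissue; genes under 1 TPM in every group mean are left out. The Fringe bar is mostly lfng in both mutant groups and mostly mfng in both sibling groups, and the target bar is tallest in mutant epidermis, mainly through her9, her6, her15.1 and her2.

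The Fringe enzymes changed in opposite directions in epidermis. The gene mfng (ENSDARG00000042925, manic fringe) had 0, 0.263 and 1.35 TPM in mutant epidermis and 50.3, 80.8 and 164 TPM in sibling epidermis. Every mutant library lay below every sibling library, as 3.60% of all genes did. On the log2 scale mfng fell by 5.88 (SE 0.70; limma, adjusted p = 1.59e-07).

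In gill mfng had 0, 0.712 and 2.1 TPM in mutants and 5.87, 28.7, 116, 35.2 and 113 TPM in siblings. The groups again did not overlap, as for 1.73% of all genes, although sibling gill 1 was low among siblings. It fell by 4.49 on the log2 scale (SE 0.74; limma, adjusted p = 0.000107). The effects did not pass a test of their difference (1.38, SE 1.02; limma, adjusted p = 0.717).

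Lunatic fringe, lfng (ENSDARG00000037879), went the other way in epidermis, with 1.30, 54.8 and 208 TPM in mutants and 0.200, 0.790 and 26.1 TPM in siblings. Mutant libraries 2 and 4, at 2.05 and 1.30 TPM, lay within the sibling range. The log2 change was 3.34 (SE 1.07; limma, adjusted p = 0.0329), a call that stood near the threshold. It ended in 10 of 14 fits without 1 library (mutant epidermis 1, 3, 5, 6 or 7, or sibling epidermis 1, 3, 4, 6 or 7), with adjusted p of 0.0520 to 0.0818.

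In gill lfng had 0.711, 18.5 and 186 TPM in mutants and 124, 19.0, 20.6, 14.1 and 37.3 TPM in siblings, with a log2 change of -1.17 (SE 1.14; limma, adjusted p = 0.628). The difference of its effects between tissues was -4.51 (SE 1.56; limma, adjusted p = 0.265). Radical fringe, rfng, averaged 11.0 ± 12.5 TPM in mutant epidermis, 2.34 ± 4.21 TPM in sibling epidermis, 7.07 ± 8.64 TPM in mutant gill and 9.86 ± 14.9 TPM in sibling gill, and did not pass in either tissue.

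The make-up of Fringe RNA does not depend on the scaling of a library. As a share of the TPM of the 3 Fringe genes, mfng had a median of 0.768% in mutant epidermis (range 0 to 42.0%) and 99.0% in sibling epidermis (62.3 to 99.5%). In gill its median share was 4.68% in mutants (0 to 58.9%) and 66.1% in siblings (4.51 to 81.8%). The highest mutant shares came from libraries with little Fringe RNA of any kind, and the lowest sibling share from sibling gill 1. The share of lfng had a median of 67.9% in mutant epidermis, 0.959% in sibling epidermis, 65.8% in mutant gill and 24.3% in sibling gill. These shares are given as a description with no test.

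**Figure D3:**
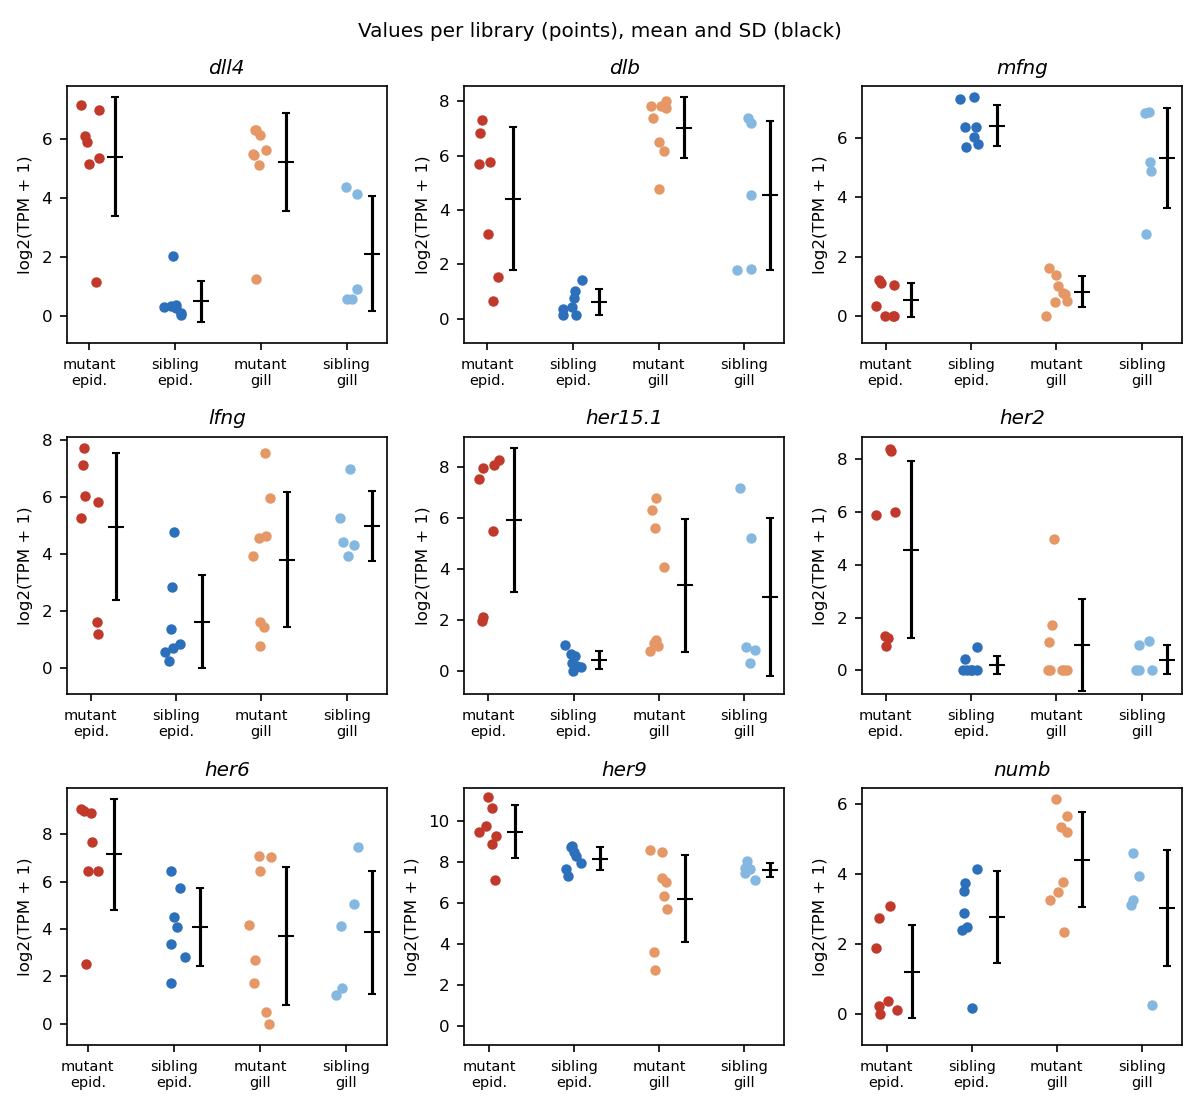
Log2(TPM + 1) of 9 members in each library (points), with the group mean and SD in black, for mutant and sibling cells of epidermis and gill. Only mfng is separated between mutants and siblings in both tissues; her15.1 and her2 are separated in epidermis by narrow gaps, and mutant epidermis splits into high and low libraries for both.

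Of the 10 target and family genes with a row, 6 were tested and 2 rose in mutant epidermis. The gene her15.1 (ENSDARG00000054562), a zebrafish gene of the Hes5 kind that Notch activates, had 2.89, 185 and 313 TPM in mutant epidermis and 0, 0.247 and 1.01 TPM in sibling epidermis. The groups did not overlap, as for 2.03% of all genes. Mutant libraries 2 and 5 held 2.89 and 3.34 TPM, library 7 held 44.5 TPM and the other 4 held 185 TPM or more. For her15.1 the log2 change was 5.50 (SE 1.21; limma, adjusted p = 0.00152). Zebrafish have near-identical copies of this gene and of the her4 genes, and the sources used here do not say how reads shared between copies were counted, so these levels are uncertain to that extent.

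The gene her2 (ENSDARG00000038205), another bHLH repressor of this family, had 0.905, 58.6 and 335 TPM in mutant epidermis and 0, 0 and 0.842 TPM in sibling epidermis. The groups did not overlap, but the gap was under 1 TPM: mutant libraries 2, 5 and 7 held 1.32, 0.905 and 1.45 TPM, and libraries 1, 3, 4 and 6 held 58.6 TPM or more. Those 4 were the same libraries that were highest for her15.1. Its log2 change came to 4.39 (SE 1.01; limma, adjusted p = 0.00259).

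The gene her6, listed under HES1 in the reference names and known in zebrafish as a Notch target that also cycles in progenitors, had 4.78, 207 and 532 TPM in mutant epidermis and 2.27, 16.2 and 85.6 TPM in sibling epidermis. Mutant epidermis 5 was far below the other mutants, which all held 85.7 TPM or more, and so lay above every sibling. The log2 change was 3.05 (SE 1.17) and did not pass (limma, adjusted p = 0.0834). Without mutant epidermis 5 it passed (adjusted p = 0.0228). It passed in none of the other fits without 1 library, where adjusted p in limma reached 0.17 without sibling epidermis 5.

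In gill none of these passed. There her15.1 had 0.734, 8.59 and 110 TPM in mutants and 146, 0.905, 0.763, 0.262 and 36.1 TPM in siblings, with a log2 change of 0.47 (SE 1.29; limma, adjusted p = 0.892). For her2 mutant gill had 0, 0 and 30.2 TPM and sibling gill 0.923, 0, 1.14, 0 and 0 TPM, with a log2 change of 0.56 (SE 1.08; limma, adjusted p = 0.833). For her6 mutant gill had 0, 11.3 and 134 TPM and sibling gill 1.33, 1.81, 177, 16.3 and 32.0 TPM, with a log2 change of -0.16 (SE 1.25; limma, adjusted p = 0.962). In each case the groups overlapped through most of their range.

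The tissue difference of these effects did not pass either. It was -5.03 for her15.1 (SE 1.76; limma, adjusted p = 0.276), -3.83 for her2 (SE 1.48; 0.345) and -3.22 for her6 (SE 1.71; 0.565). In that limma test 5 members had an unadjusted p under 0.05 (her15.1, her2, her9, lfng and numb), with no share over all genes taken at that cutoff. After adjustment 0 of the 28 members passed, and over all genes 0.0594% passed, 0.0371% higher and 0.0223% lower. A rise of the targets in epidermis alone is therefore not shown by these libraries.

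The remaining targets did not pass in either tissue. The most abundant was her9, listed under HES4 in the reference names, a repressor that in zebrafish can be expressed without Notch input. It averaged 956 ± 742 TPM in mutant epidermis, 302 ± 107 TPM in sibling epidermis, 144 ± 145 TPM in mutant gill and 197 ± 44.7 TPM in sibling gill. Its spread was several times wider in mutants than in siblings in both tissues. The gene hes6, whose product antagonises other Hes proteins and favours neuronal differentiation, averaged 141 ± 76.4 TPM in mutant epidermis, 81.6 ± 81.6 TPM in sibling epidermis, 152 ± 209 TPM in mutant gill and 96.0 ± 65.3 TPM in sibling gill. The gene hey1 averaged 24.0 ± 34.9 TPM in mutant epidermis, 2.07 ± 5.15 TPM in sibling epidermis, 13.7 ± 17.7 TPM in mutant gill and 27.1 ± 59.6 TPM in sibling gill, where library 5 alone held 134 TPM. On the log2 scale the epidermal difference of her9 was 1.32 (SE 0.67; limma, adjusted p = 0.223) and that of hey1 2.22 (SE 1.14; 0.225), and the gill difference of her9 was -1.39 (SE 0.72; 0.291).

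**Figure D4:**
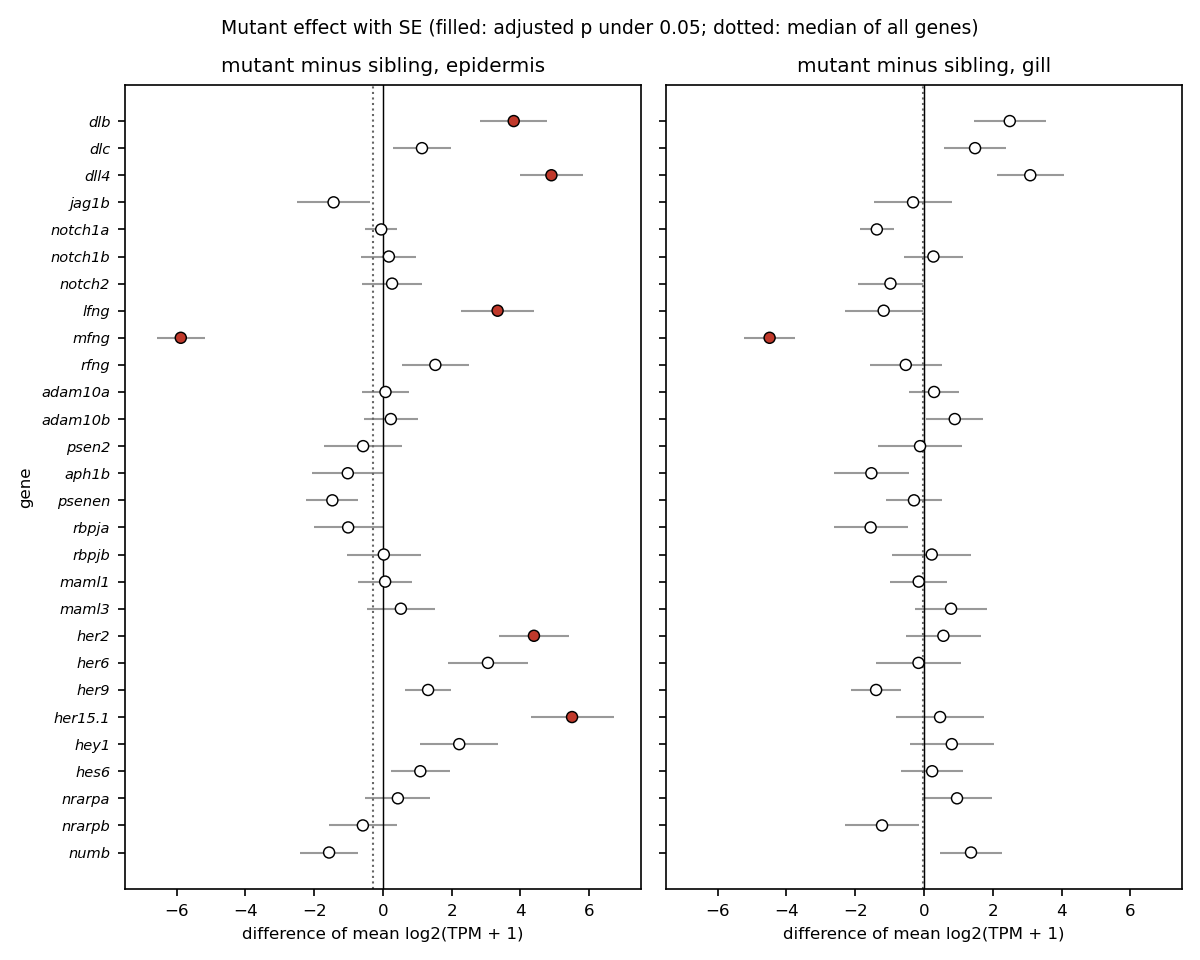
Difference of mean log2(TPM + 1), mutant minus sibling, for the 28 members tested, with its SE, in epidermis and gill; filled points passed limma at an adjusted p of 0.05 and the dotted line is the median of all genes tested. In epidermis mfng lies at -5.88 and dll4, dlb, lfng, her2 and her15.1 lie above 3; in gill mfng alone passed, at -4.49.

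Receptor RNA was low in all groups and 0 of the 3 tested receptor genes (notch1a, notch1b and notch2) passed in either tissue in the main fit. Of these notch1a had an unadjusted p under 0.05 in gill, where it averaged 0.421 ± 0.628 TPM in mutants and 4.75 ± 6.37 TPM in siblings (limma, adjusted p = 0.102). Sibling gill ranged from 0 TPM of notch1a in library 3 to 15.4 TPM in library 1. Fits of notch1a without 1 library are not given here. The main one in epidermis was notch2, with 15.08 ± 17.3 TPM in mutants and 9.44 ± 7.84 TPM in siblings; in gill it averaged 1.72 ± 1.91 TPM in mutants and 5.83 ± 5.26 TPM in siblings. The gene notch1b averaged 1.36 ± 2.82 TPM in mutant epidermis, 1.13 ± 2.85 TPM in sibling epidermis, 7.97 ± 14.6 TPM in mutant gill and 2.90 ± 4.3 TPM in sibling gill. Summed over the 4 genes, receptors reached 18.9 ± 15.8 TPM in mutant epidermis, 11.4 ± 8.37 TPM in sibling epidermis, 11.5 ± 17.2 TPM in mutant gill and 13.5 ± 8.55 TPM in sibling gill, which differed by less than the spread between libraries.

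The receptor-cutting machinery was measured at higher levels and showed no call. Adam10 makes the first cut and gamma-secretase, built from a presenilin (psen), Aph1, the presenilin enhancer (psenen) and nicastrin, makes the cut that frees the intracellular part. The gene psenen averaged 74.1 ± 77.0 TPM in mutant epidermis, 109 ± 50.3 TPM in sibling epidermis, 122 ± 102 TPM in mutant gill and 116 ± 38.4 TPM in sibling gill. The gene adam10a averaged 43.0 ± 50.5 TPM in mutant epidermis, 26.6 ± 15.24 TPM in sibling epidermis, 40.4 ± 18.0 TPM in mutant gill and 30.0 ± 6.32 TPM in sibling gill. The gene aph1b averaged 36.5 ± 41.6 TPM in mutant epidermis, 30.8 ± 19.1 TPM in sibling epidermis, 25.6 ± 23.9 TPM in mutant gill and 35.7 ± 20.8 TPM in sibling gill. For all 3 genes the differences were smaller than the SD of at least 1 of the groups compared. The presenilin gene psen2 averaged 2.98 ± 7.39 TPM in mutant epidermis, 5.73 ± 9.64 TPM in sibling epidermis, 31.0 ± 61.7 TPM in mutant gill and 14.8 ± 16.3 TPM in sibling gill. The paralogue adam10b stayed below 9 TPM in every group mean.

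The nuclear partners were likewise without a call. The gene rbpja averaged 7.38 ± 11.5 TPM in mutant epidermis, 9.36 ± 9.93 TPM in sibling epidermis, 12.4 ± 21.8 TPM in mutant gill and 15.0 ± 9.23 TPM in sibling gill. Its paralogue rbpjb averaged 8.45 ± 13.9 TPM in mutant epidermis, 7.82 ± 14.9 TPM in sibling epidermis, 21.6 ± 30.5 TPM in mutant gill and 14.6 ± 13.2 TPM in sibling gill. The Mastermind gene maml3 averaged 9.99 ± 16.1 TPM in mutant epidermis, 3.15 ± 4.90 TPM in sibling epidermis, 14.1 ± 16.6 TPM in mutant gill and 4.65 ± 3.90 TPM in sibling gill, and maml1 stayed below 4 TPM in every group mean.

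Of the 3 tested inhibitor genes 0 passed between mutants and siblings in either tissue, and 1, numb, passed between gill and epidermis in mutants. Nrarp proteins are feedback inhibitors that Notch itself induces; nrarpa and nrarpb had group means of 2.49 to 11.7 TPM and did not pass in any contrast. The gene numb (ENSDARG00000027279) encodes an endocytic adaptor that removes Notch from the membrane. It was higher in mutant gill, at 4.09, 24.2 and 69.6 TPM, than in mutant epidermis, at 0, 0.278 and 7.5 TPM; only mutant gill 8, at 4.09 TPM, and mutant epidermis 3 and 7 brought the ranges together. The log2 difference, gill minus epidermis, was 3.20 (SE 0.82; limma, adjusted p = 0.0192), and it did not pass with detected genes as a covariate (2.23, adjusted p = 0.261). Within a tissue the mutant effect on numb did not pass: the mean was 2.33 ± 3.09 TPM in mutant and 7.80 ± 5.61 TPM in sibling epidermis, and 28.7 ± 23.6 TPM in mutant and 10.8 ± 8.61 TPM in sibling gill.

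The comparison of gill with epidermis in mutants thus called 3 of 28 members (10.7%), where 4.23% of all genes passed: numb, higher, where 3.4% of all genes were, and her9 and her2, lower, where 0.824% were. The ranges overlapped for each of the 28; over all genes 0.891% were higher and 0.163% lower without overlap. For her9 mutant gill had 5.63, 104 and 378 TPM and mutant epidermis 139, 705 and 2301 TPM. Mutant gill 1, 4 and 8 lay within the epidermal range and the other 5 below it; the log2 difference was -3.27 (SE 0.65; limma, adjusted p = 0.00235). For her2 mutant gill had 0, 0 and 30.2 TPM and mutant epidermis 0.905, 58.6 and 335 TPM, a log2 difference of -3.61 (SE 0.98; limma, adjusted p = 0.0290). The her2 call ended in 6 of 15 fits without 1 library (mutant epidermis 1, 3, 4 or 6, or mutant gill 2 or 5; adjusted p of 0.0517 to 0.0753). When the libraries of both mutant groups alone were fitted, 0 of these 3 tissue calls held (adjusted p = 0.0985 for numb, 0.0569 for her9 and 0.214 for her2). The her6 difference of -3.45 (SE 1.13, limma, adjusted p = 0.0745) passed without mutant epidermis 5, mutant gill 3 or mutant gill 6 (adjusted p of 0.0254 to 0.0451). It did not pass in the other fits without 1 library, and adjusted p in limma reached 0.15 without mutant epidermis 4. In siblings 0 of 28 members passed between tissues in limma, where 0.958% of all genes did (0.631% higher and 0.327% lower). There 3 members had an unadjusted p under 0.05 (dlb, lfng and notch1a), with no share over all genes taken at that cutoff. Between the mutant tissues 7 members did (dlb, her15.1, her2, her6, her9, notch2 and numb), also with no such share. For dlb the tissue difference in siblings passed in limma without sibling gill 1 (adjusted p = 0.0419) or sibling gill 4 (0.0374). It passed in none of the other fits without 1 library, and adjusted p reached 0.278 without sibling gill 2. No member was lower in every sibling gill library than in every sibling epidermal library, as 0.713% of all genes were.

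The 11 members that did not pass the filter were dla, dld, jag1a, jag2a, jag2b, notch3, her4.1, her12, hey2, heyl and numbl. The genes her4.1 and heyl were listed at 0 TPM in all 27 libraries. The others reached 1 TPM in 1 to 3 libraries, with a highest value of 30.0 TPM for hey2 in mutant gill 6. That library also held the highest summed levels of the endothelial markers, 243 TPM, and of the lateral line and hair cell markers, 4723 TPM. It held 79.4 TPM of dll4, the highest of its group, while notch1b stood at 0.225 TPM there. Not all libraries followed the endothelial sum, to which the sums below refer. Mutant gill 7, with the lowest sum of its group, 0.593 TPM, held 48.5 TPM of dll4. Mutant gill 1, with a sum of 1.61 TPM, did hold the lowest dll4, 1.39 TPM. Mutant epidermis 7 had the highest sum of its group, 28.3 TPM, and the lowest dll4, 1.25 TPM. A link between dll4 and these markers was not tested. Of the 17 endothelial markers 8 were under 1 TPM in every mutant gill library, kdrl, tie1 and flt4 among them. The rest, among them cdh5, fli1a, egfl7, kdr and tek, reached 1 TPM in at least 1 mutant gill library.

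Beside these members, 57 other genes of the pathway were listed, of which 50 had a row and 31 were tested. They handle ligands (mib1, neurl1b), glycosylate or cut receptors (pofut1, furina, adam17a), turn receptors over (itcha, fbxw7), serve as nuclear co-regulators (ep300a, ncor1) or belong to the Hairy/E(spl) family. In epidermis 2 rose and 0 fell, or 6.45% of the 31, against 12.8% of all genes (4.13% higher and 8.69% lower). In gill 0 passed limma, against 6.21% of all genes. There 2 had an unadjusted p under 0.05, hes2.2 (higher) and pofut1 (lower), and in epidermis 7 did, with no share over all genes taken at that cutoff. The log2 change of pofut1 was -3.30 in gill (SE 1.09, limma, adjusted p = 0.0649). In epidermis it was -2.77 (SE 1.02, limma, adjusted p = 0.0702). Of 13 other Hairy/E(spl) genes with a row, 10 were listed at 0 TPM in every library, among them her4.3 and her4.4. The exception that rose was hes2.2, with 2.69, 154 and 398 TPM in mutant epidermis and 0, 0.249 and 2.39 TPM in sibling epidermis. The groups did not overlap, as for 2.03% of all genes, but the lowest mutant and the highest sibling, at 2.69 and 2.39 TPM, lay close. On the log2 scale hes2.2 rose by 4.89 (SE 1.20, limma, adjusted p = 0.00456). In gill hes2.2 stood at 6.82 to 585 TPM in mutants and 0.365 to 88.5 TPM in siblings and did not pass. The other was kat2b, a histone acetyltransferase gene, with 0.348, 19.0 and 79.3 TPM in mutant epidermis and 0, 0.177 and 10.6 TPM in sibling epidermis (log2 change 3.59, SE 1.01; limma, adjusted p = 0.0141). That call ended with detected genes as a covariate (adjusted p = 0.0656) and without the 3 libraries with the fewest genes (0.0914).

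Markers of some other cell types also differed between mutants and siblings. Counts of calls in the marker lists, here and in the next paragraph, are descriptions only. The lists were chosen with earlier results of these data known, and a gene can pass the filter through the group in which it is high. Over all genes tested 4.13% were higher in mutant epidermis and 2.34% in mutant gill. Of 12 tested genes of a neuroendocrine and sensory list 11 were higher in mutant epidermis and 9 in mutant gill. The list's 15 genes with a row summed to 573 to 8240 TPM in mutant epidermis and 17.2 to 233 TPM in sibling epidermis. In gill they summed to 2614 to 6543 TPM in mutants and 25.3 to 665 TPM in siblings. The members ascl1a and gfi1aa stayed under 1 TPM in mutant epidermis, and neurod1 and pou4f3 in mutant gill. Mutant epidermis 7, with the lowest dll4 and dlb of its group, also had the lowest neuroendocrine sum, and sibling epidermis 1, with the highest dll4 of its group, the highest. In sibling gill, library 4 had the lowest sum and the lowest dlb, her15.1 and lfng. Other libraries did not follow the sum: mutant gill 1, with the lowest dll4 of its group, had a sum of 4634 TPM, and sibling gill 5, with the lowest dll4 of its group, one of 541 TPM. Mutant epidermis 2 had the highest sum of its group, 8240 TPM, with the lowest her15.1, and mutant epidermis 7, with the lowest sum, had the highest her6 and her9. Lower in mutants were 8.69% of all genes tested in epidermis and 3.87% in gill. Of 9 tested myeloid genes 6 were lower in mutants in each tissue. The sum over the 14 listed myeloid genes was 175 to 711 TPM in mutant epidermis and 2782 to 4766 TPM in sibling epidermis. In gill it was 389 to 1977 TPM in mutants and 2015 to 5588 TPM in siblings. The genes csf1ra and ptprc were at 0 TPM throughout. The myeloid gene cebpa reached 1 TPM in at least 1 mutant library of each tissue but in no sibling library. For spi1b this level was reached in mutant gill alone, for irf8 in sibling gill alone and for marco in no library. The part of these cell types in the Notch gene results was not tested, and in 30 sorted cells a change in the number of cells of a kind cannot be told apart from a change in RNA per cell.

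Endothelium, in which dll4, hey2 and notch1b are known, gave small sums in epidermis. They were 0.159 to 28.3 TPM in mutants and 0.1 to 14.8 TPM in siblings. The markers kdrl, fli1a and egfl7 were at 0 TPM in every mutant library and at most 0.234 TPM in siblings. Others reached 1 TPM in at least 1 library: tek, pecam1 and plvapb in mutants, and tek, esama and sox7 in siblings. In gill the sums were 0.593 to 243 TPM in mutants and 21.4 to 71.5 TPM in siblings, and 0 of 3 tested endothelial genes passed in either tissue. Of 6 superficial keratinocyte genes 2 were higher and 1 lower in mutant epidermis and 1 was higher in mutant gill. Of 6 ionocyte genes 1 was higher in mutant gill and 0 passed in epidermis. The shares over all genes given with the neuroendocrine and myeloid lists apply to these lists too. Of 2 basal keratinocyte genes and 2 genes of lateral line and hair cells 0 passed in either tissue, and 0 of 8 fibroblast genes could be tested. Between the mutant tissues 4 of the 6 superficial keratinocyte genes were lower in gill, where 0.824% of all genes were. That list summed to 13453 to 45102 TPM in mutant epidermis and 5352 to 16917 TPM in mutant gill. Higher in mutant gill were 1 of the 2 lateral line and hair cell genes and 1 of the 12 neuroendocrine genes, beside 3.4% of all genes. The part of these markers in the tissue calls of numb, her9 and her2 was not tested. The sort excluded mpeg1:DsRedx-positive cells, and mpeg1.1 stood at 0.557 to 1.85 TPM in mutant epidermis, 101 to 335 TPM in sibling epidermis, 0 to 3.56 TPM in mutant gill and 12.2 to 140 TPM in sibling gill.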

How the data were processed

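The authors deposited 1 table of TPM values, in which each library has a column of its own. STAR, featureCounts and DESeq2 are named in the submitters' processing notes with no version or role, as are GRCz11 and danRer11. Annotation, strand setting and the handling of reads shared between genes are not stated there, so values of near-identical paralogues are uncertain. TPM makes each gene depend on all others in its library and keeps no depth. Members were found by symbol, and all 39 identifiers were in the reference gene names. No coordinates or sequences are given, since the tables at hand name another assembly and hold no sequence.

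Genes at 1 TPM or more in at least 5 libraries (13465) were tested with limma 3.58.1 in R 4.3.3 (lmFit, eBayes with trend) on log2(TPM + 1), as 4 group means in 1 fit with 23 residual degrees of freedom. Tests were two-sided, with Benjamini-Hochberg adjustment over all genes tested and a threshold of 0.05. Fold changes on this scale understate changes of low genes. Mutants were compared with siblings within epidermis and within gill, these effects with each other, and gill with epidermis within mutants and within siblings. The spic check used an exact permutation test. The limma step was also run on simulated data with normally distributed noise. Only genes with a mean log2(TPM + 1) over 5 in siblings were changed there. The members called higher in mutant epidermis lay below that level in sibling epidermis, so the simulation does not cover them. Figures used matplotlib 3.10.9.

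By the rule for named genes, every member with a row is named; those past the threshold are given by library, and others with a mean of at least 10 TPM by group mean. Members and lists were chosen with earlier results of these data known. The alternatives were pseudocounts of 0.1 and 10; no filter, or one of 5 TPM in 10 libraries; quantile normalization or median centring; a fit of only the libraries compared; detected genes as a covariate; array weights; the replicate number as a block; and fits without each library in turn or without the 3 with fewest genes.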

Additional observations from a re-analysis of the deposited data

Results flagged for a closer look

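In 20 of 112 combinations of a tested member and a group, 1 library stood far from the rest of its group by Dixon's test on log2(TPM + 1). For normally distributed values chance alone flags about 1 in 20 groups. Several of these groups lay mostly near 0 TPM, so that rate need not hold here. High libraries were 15 of the 20. Sibling epidermis 1 stood high for 4 genes, with dll4 at 3.18 TPM, notch1a at 1.06 TPM, notch1b at 7.59 TPM and adam10b at 3.84 TPM. Among the ligands and receptors, dlc stood at 9.88 TPM in sibling gill 1, jag1b at 52.0 TPM in mutant epidermis 1 and notch1a at 0.437 TPM in mutant epidermis 6. The ligand dll4 was low in 1 library of each mutant group, at 1.25 TPM in mutant epidermis 7 and 1.39 TPM in mutant gill 1.

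Among proteases and nuclear partners, adam10b stood at 11.2 TPM in mutant epidermis 1 and 6.80 TPM in sibling gill 5, psen2 at 19.7 TPM in mutant epidermis 3 and maml1 at 19.9 TPM in mutant epidermis 6, while rbpja was low in sibling gill 3, at 0.490 TPM. Among the targets, her2 was high in mutant gill 3, at 30.2 TPM, and hey1 in sibling epidermis 3 and sibling gill 5, at 13.7 and 134 TPM. The target her6 was low in mutant epidermis 5, at 4.78 TPM, and hes6 in sibling gill 2, at 2.39 TPM. The inhibitor gene nrarpa was high in sibling epidermis 5, at 16.1 TPM.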

How the results depend on the processing

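The epidermal count of 6 members lay between 5 and 10 under the other settings and between 5 and 6 without 1 library; median centring gave 10. Median centring moved the median change of all genes to 0.91 in epidermis and 0.83 in gill, so its higher calls follow the scaling; with quantile normalization 46.9% of all epidermal calls were higher and with median centring 83.3%, against 32.2%. With median centring 82.8% of all gill calls were higher, against 37.7%, and 34.3% of the tissue calls in mutants, against 80.5% (54.7% with quantile normalization). The gill count of 1 became 2 with the filter of 5 TPM in 10 libraries, quantile normalization or array weights and 3 with median centring; without 1 library it was 1 to 3. It was 2 without mutant gill 1 or sibling gill 1 and 3 without sibling gill 3. The tissue count in mutants (3) was 0 with the libraries of the contrast alone, 1 without the 3 libraries with the fewest genes and 2 to 4 without 1 library; in siblings (0) it was 1 with a pseudocount of 0.1 or array weights and 0 to 1 without 1 library (1 without sibling gill 1, 3 or 4). The test of the difference called 0 members under all 10 settings and all 27 fits without 1 library. Of the other pathway genes, 2 passed in epidermis, 5 with median centring and 1 with detected genes as a covariate or without the 3 libraries (2 to 3 without 1 library); in gill 0 passed, and 1 with median centring, array weights or the block (0 to 1 without 1 library, 1 without mutant gill 7 or sibling gill 3).

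With the replicate number as a block, the member counts were 6 in epidermis and 1 in gill. The calls of numb, her9 and her2 between mutant tissues also held with it. Deviations of same-numbered libraries correlated at -0.03 to 0.08, under the limit of 0.1 set here, so the main fit did not treat the libraries as pairs. The p-values of the main fit thus take no account of anything that same-numbered libraries share. The library that correlated best carried the same number in 7 of 7 cases between mutant and sibling epidermis and 2 of 5 between mutant and sibling gill. It did so in 7 of 7 between mutant gill and mutant epidermis, and in 3 of 5 between sibling gill and sibling epidermis. Each match was picked from 5 to 8 libraries, so random picks would rarely give 7 of 7. Same-numbered libraries thus look related in the data, in a way that the design does not name. Of 398 refits of 16 gene results, 345 kept their side of the threshold, 31 lost it, 22 gained it and 0 reversed. With a pseudocount of 10, adjusted p was 0.0542 for dlb and 0.0561 for lfng in epidermis and 0.0503 for her2 between mutant tissues. With no filter it was 0.0712 for lfng and 0.0754 for her2, and with the libraries of the contrast alone 0.0555 for lfng. Without the 3 libraries with the fewest genes it was 0.0529 for numb and 0.0567 for her2, and with median centring 0.0932 for numb. Calls were gained for her6 in epidermis under 5 settings (0.00727 to 0.0496) and between mutant tissues under 2 (0.0275 and 0.0454), for dll4 in gill under 4 (0.0135 to 0.0442) and for dlb between sibling tissues under 2 (0.0162 and 0.0214). The change of spic ranged from -4.92 to -4.27 in epidermis and from -4.56 to -4.02 in gill without 1 library. TPM holds no depth, so counting error could not be set apart.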
